A study of Homo sapiens with 6 samples.

Results

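The genes described here are the HOX genes and the other homeobox and T-box genes that pattern the embryo by position: the HOXA, HOXB, HOXC and HOXD clusters and the IRX, sine oculis (SIX5 and its relatives), MEIS, PBX, DLX, MSX, LHX and TBX families. They were chosen by gene symbol, with earlier results of these data known, and 72 of the 20851 genes in the deposited table belong to them. These families hold 87 protein-coding genes in RefSeq, and the remaining 15, among them IRX2, IRX4 and IRX6, were not analysed here. RNA-seq (sequencing of polyadenylated RNA) was available for 6 libraries of A375, a human melanoma cell line. There were 3 libraries of A375RIPK4.KO, a subline with a knockout of the kinase gene RIPK4, and 3 of A375neg, the negative control that the labels call a GFP control. The study made the knockout with CRISPR/Cas9 and its control with a nontargeting guide RNA. It names clone #1 for its RNA-seq, so all A375RIPK4.KO libraries come from 1 clone. The loss of RIPK4, the particular clone and the GFP label, which only the A375neg titles carry, cannot be told apart. The study describes the libraries of each group as independent biological replicates. The p-values measure the spread between replicates of 1 clone and its control.

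HOX proteins bind DNA through a homeodomain and specify position along the body axis, and the order of the genes within each cluster follows the order of the body regions in which they act. Genes with low paralogue numbers act towards the head and genes with high numbers act towards the tail and the tips of the limbs. PBX and MEIS proteins belong to the TALE homeodomain class and bind DNA together with HOX proteins. IRX proteins are also of the TALE class and pattern the nervous system, heart, kidney and limbs, while the sine oculis proteins act with EYA co-activators. DLX, MSX, LHX and TBX factors direct the development of limbs, craniofacial tissue and neurons. Melanocytes arise from the neural crest, and cultured cells often keep part of the HOX pattern of the region they came from.

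Library totals ran from 21882863 to 26694140 counts. Each library's deviation from the others of its group was rank-correlated with exon length over 12917 genes. A375RIPK4.KO replicate 2 had the largest correlation in size, at -0.354. The other 2 libraries of that group had 0.223 and 0.271, and the A375neg libraries -0.134 to 0.082. Since each deviation is taken from the other 2 libraries, the positive values in part mirror the negative one. Longer genes were thus lower in A375RIPK4.KO replicate 2 relative to the other 2 libraries of its group. Without replicate 2, 7 members changed, with DLX4 lost and TBX20 gained. RIPK4 itself had 319, 368 and 404 counts in A375neg and 42, 51 and 61 in A375RIPK4.KO, a log2 fold change of -2.69 ± 0.17 (SE). Fold changes are given throughout as A375RIPK4.KO over A375neg. Of 10 markers of melanocytes and melanoma, 7 were listed and 6 of them had a mean of at least 50 counts, including SOX10 and AXL. Their summed level was 944 to 987 CPM (counts scaled to library size) in A375neg and 954 to 1015 CPM in A375RIPK4.KO, a sum carried mostly by AXL and SOX10. Within this list 1 gene was higher and 2 were lower: SOX9 had a log2 fold change of 2.71 ± 0.29, NGFR of -3.03 ± 0.29 and S100B of -0.89 ± 0.24. The S100B call was lost without A375neg replicate 2 or 3 or A375RIPK4.KO replicate 1 or 3 (adjusted p from 0.0785 to 0.126 in edgeR). The melanocyte markers MLANA, TYR and DCT were not analysed here. Leukocyte markers summed to at most 0.579 CPM in any library. Endothelial markers summed to 1.30 to 1.47 CPM in A375neg and 0.248 to 0.490 CPM in A375RIPK4.KO, and PECAM1 among them was lower (log2 fold change -2.12 ± 0.39, adjusted p = 0.00556 in edgeR). The 2 listed keratinocyte markers, mostly KRT14, summed to 19.1 to 23.2 CPM in A375neg and 5.70 to 6.85 CPM in A375RIPK4.KO, and the 4 listed fibroblast markers to 7.50 to 9.23 and 6.20 to 6.47 CPM. The endothelial, keratinocyte and fibroblast sums were all lower in A375RIPK4.KO with no overlap, and their part in the results on the members was not tested.

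The part of the homeobox that encodes the DNA recognition helix is shown for the 3 listed IRX genes and for 4 other homeobox genes that changed. It shows how closely these members resemble each other in the bases that encode the site that contacts DNA. In the longest coding sequence of each gene in GENCODE, a pattern was searched of TGG (tryptophan), a phenylalanine codon, any codon, AAC or AAT (asparagine), any codon and an arginine codon. It was found in 63 of 64 homeobox members with a coding sequence and in 0 of 7 T-box members, whose DNA-binding domain is of another kind. Each line gives 39 bases, or 13 codons, 5′ to 3′ on the coding strand, and the capitals mark the tryptophan and asparagine codons.
IRX1: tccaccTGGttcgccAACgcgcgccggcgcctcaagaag
IRX3: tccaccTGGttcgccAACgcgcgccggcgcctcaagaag
IRX5: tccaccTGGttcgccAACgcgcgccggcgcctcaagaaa
HOXD10: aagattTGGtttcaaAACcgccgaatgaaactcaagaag
HOXD13: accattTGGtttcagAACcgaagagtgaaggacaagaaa
LHX4: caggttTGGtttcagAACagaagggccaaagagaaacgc
DLX4: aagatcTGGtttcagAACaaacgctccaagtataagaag

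On GRCh38 these coding stretches lie on chromosome 5 from 3599471 to 3599509 (IRX1), on chromosome 16 from 54285320 to 54285358 (IRX3) and on chromosome 16 from 54932729 to 54932767 (IRX5). Each of them lies within 1 exon. The stretches of IRX1 and IRX3 were the same at 39 of 39 bases, and that of IRX5 shared 38 of 39 bases with each of them. HOXD13 and HOXD10, both of the HOXD cluster, shared 29 of 39 bases. These counts compare bases, and the encoded amino acids were not compared. The stretch of LHX4 was the only one of the 7 shown that was split over 2 exons.

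Promoter sequences in RefSeq (GRCh38.p14) were found for 42 of the 72 members, among them 4 of the members that changed. Those of IRX1, HOXD13 and LHX4 are shown, because these genes changed in opposite directions, and that of HOXD10 is not shown. The lines give the 250 bases before the annotated start, 5′ to 3′ on the plus strand, with CG dinucleotides in capitals. No exon of GENCODE overlapped these windows, although the RefSeq spans of HOXD13 and LHX4 begin further upstream.
IRX1, chr5:3595582-3595831: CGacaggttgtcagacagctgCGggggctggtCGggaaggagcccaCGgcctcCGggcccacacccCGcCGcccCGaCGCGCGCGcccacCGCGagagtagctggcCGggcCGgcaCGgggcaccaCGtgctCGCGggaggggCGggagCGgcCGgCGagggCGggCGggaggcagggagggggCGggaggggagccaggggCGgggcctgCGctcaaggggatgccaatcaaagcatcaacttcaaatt
HOXD13, chr2:176092471-176092720: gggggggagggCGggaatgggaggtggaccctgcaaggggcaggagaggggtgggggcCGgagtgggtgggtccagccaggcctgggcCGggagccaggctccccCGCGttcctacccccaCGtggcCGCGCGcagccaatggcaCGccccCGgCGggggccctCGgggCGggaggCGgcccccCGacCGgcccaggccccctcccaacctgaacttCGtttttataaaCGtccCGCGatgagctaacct
LHX4, chr1:180230014-180230263: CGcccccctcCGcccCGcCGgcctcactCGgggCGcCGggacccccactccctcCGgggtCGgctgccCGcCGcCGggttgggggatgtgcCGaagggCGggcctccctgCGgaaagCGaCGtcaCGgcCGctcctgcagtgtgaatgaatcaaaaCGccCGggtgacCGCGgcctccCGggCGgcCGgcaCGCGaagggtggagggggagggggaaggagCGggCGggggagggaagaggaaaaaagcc

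The IRX1 window held 29 CG dinucleotides, that of HOXD13 held 21, that of LHX4 held 30 and that of HOXD10 held 23. Over the 42 members the median was 22, and over 35116 promoters of the same length it was 11. The letters TAATTA, a homeodomain core, were searched on both strands and stood in 4 of the 42 windows (9.52%), against 4.35% of all windows. Those 4 were HOXD11, HOXD3, MSX2 and TBX19. The letters TGATTNAT, a HOX-PBX core, stood in 3 windows (7.14%), one of them that of LHX4, against 2.48% of all. The letters TATAAA stood in 4 windows (9.52%), one of them that of HOXD13, against 10.7% of all, and GGTGTGA, a T-box core, in 0 against 2.76% of all. These matches describe the letters in the windows and no binding was measured.

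Most of the HOX genes were transcribed in A375. Levels were compared between genes as RPKM, the counts per kilobase of exon, scaled to library size. Of the 72 members, 43 had a mean of at least 1 RPKM over the 6 libraries. All 9 listed HOXB genes and all 9 listed HOXC genes were at or above that level, but only 5 of 11 HOXA genes and 3 of 9 HOXD genes were. In A375neg the RPKM values summed to 69.6 ± 2.12 (SD, n = 3) over HOXB, 56.5 ± 1.90 over HOXC, 18.0 ± 1.85 over HOXA and 10.5 ± 0.171 over HOXD.

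**Figure D1:**
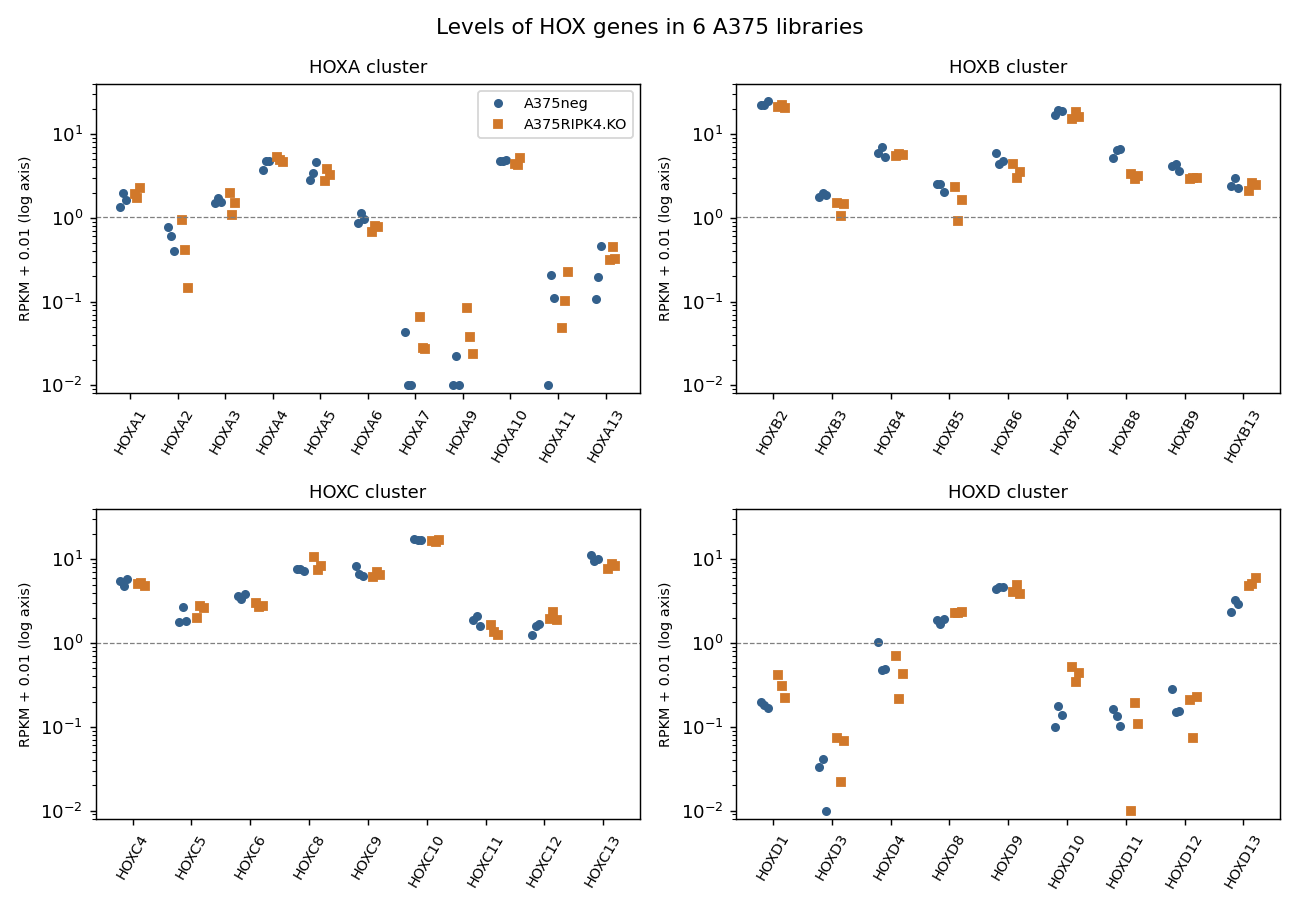
RPKM plus 0.01 on a log axis for the listed genes of the 4 HOX clusters, with 1 point for each of the 3 A375neg and 3 A375RIPK4.KO libraries and a dashed line at 1 RPKM. All HOXB and HOXC genes have a mean above the line, while HOXA7, HOXA9 and HOXD3 lie near the bottom of the axis.

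HOXB2, an anterior gene that acts in the hindbrain, had the highest mean level of all members, with 23.2 ± 1.34 RPKM in A375neg and 21.0 ± 0.854 RPKM in A375RIPK4.KO (SD, n = 3). HOXB7 followed within that cluster with a mean of 17.5 RPKM over all libraries, below HOXB2 in 6 of 6. In the HOXC cluster, HOXC10 led with 17.1 ± 0.313 RPKM in A375neg and 16.4 ± 0.392 in A375RIPK4.KO. HOXC13, a posterior gene known for its part in hair and nail formation, came next with a mean of 9.30 RPKM, and its range overlapped that of HOXC8 at 8.15 RPKM. The counts of HOXC4, HOXC5 and HOXC6 are uncertain, because these genes share an exon and the counting could split its reads among them.

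The HOXA and HOXD clusters were uneven. HOXA10 and HOXA4 had mean levels of 4.71 and 4.67 RPKM that could not be ordered, since HOXA10 was the higher in 3 of 6 libraries. HOXA7 and HOXA9, which lie between genes that were transcribed, had 0 to 3 and 0 to 5 counts per library. Their mean levels were 0.0207 and 0.0213 RPKM. HOXD9 and HOXD13 led the HOXD cluster with 4.43 and 4.05 RPKM and HOXD8 followed with 2.07 RPKM. HOXD11 and HOXD12, which lie between HOXD10 and HOXD13, stayed at 0.108 and 0.172 RPKM.

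By paralogue number, the 7 listed anterior genes (1 to 3) summed to 29.1 ± 1.20 RPKM in A375neg, the 15 central genes (4 to 8) to 68.1 ± 2.34 and the 16 posterior genes (9 to 13) to 57.5 ± 1.60 (SD, n = 3). In A375RIPK4.KO the sums were 26.6 ± 0.817, 61.2 ± 1.73 and 55.4 ± 2.08 RPKM. Of the posterior genes, 10 of 16 had a mean of at least 1 RPKM. HOXB13, at the posterior end of HOXB, had 2.47 RPKM.

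Outside the HOX clusters each family had 1 or 2 leading genes. MSX1, which acts in craniofacial and limb development, had a mean of 10.1 RPKM and held 86.5% of the MSX sum. DLX1 had 8.63 RPKM (77.8% of DLX), PBX3 had 4.91 (82.5% of PBX), MEIS2 had 1.97 (70.1% of MEIS), and LHX4 had 3.07 (85.3% of LHX). TBX3, a T-box repressor of limb, mammary and cardiac development, had 9.15 RPKM. In the sine oculis family, SIX5 led with 5.26 RPKM and SIX4 had 2.08 RPKM. The PBX2 level is uncertain, and so is the PBX share. This is because 6 copies of the gene on other scaffolds, with 0 to 7 counts per library, were counted separately. The same holds for LHX1, whose scaffold copy had 70, 71 and 70 counts in A375neg and 83, 96 and 107 in A375RIPK4.KO (adjusted p = 0.0616 in edgeR), while LHX1 itself had 3 to 12 counts.

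**Figure D2:**
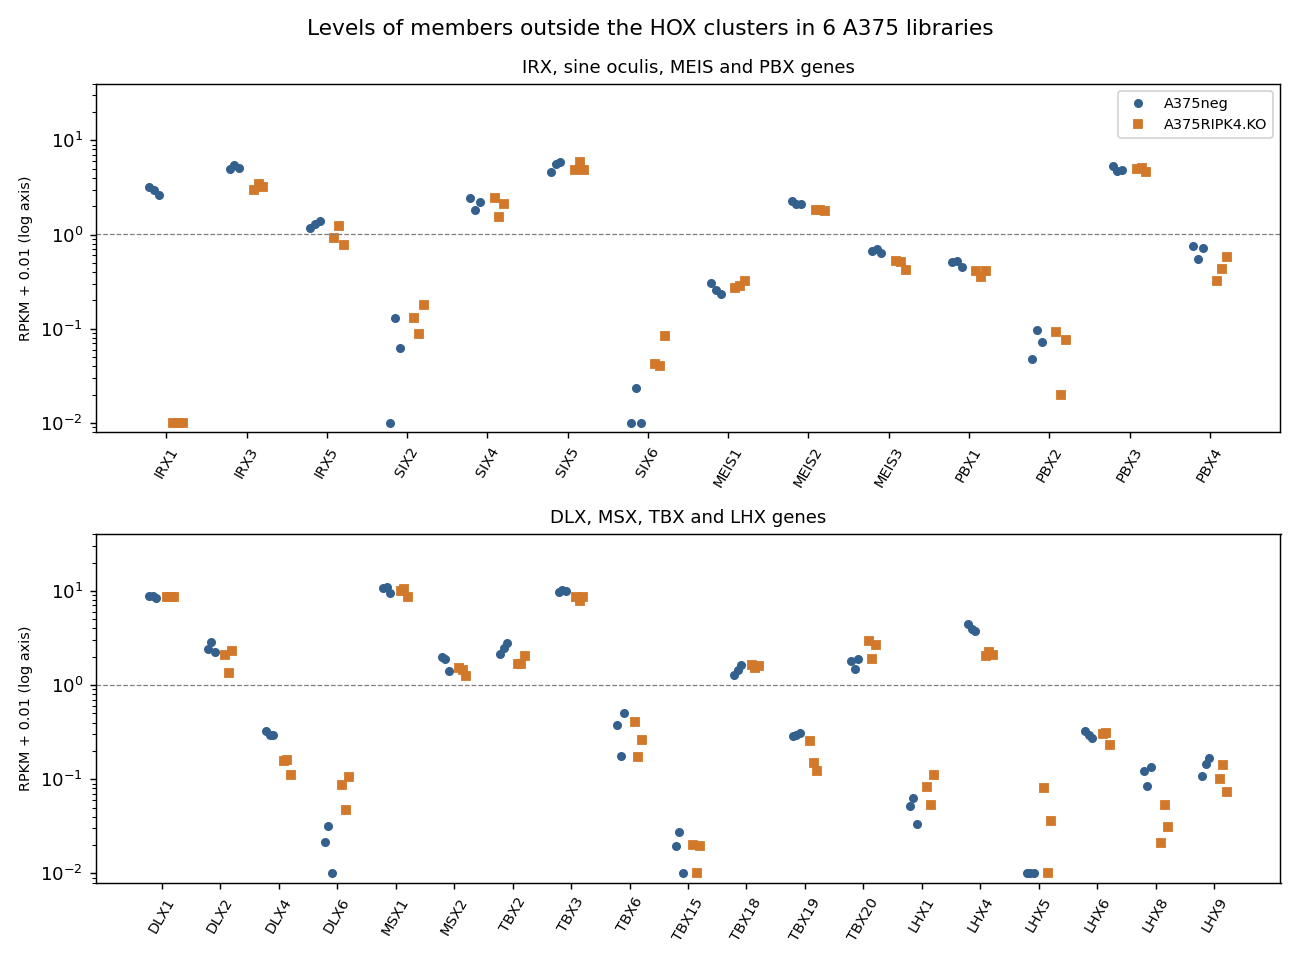
RPKM plus 0.01 on a log axis for genes of the IRX, sine oculis, MEIS, PBX, DLX, MSX, TBX and LHX families, with 1 point per library (3 A375neg, 3 A375RIPK4.KO) and a dashed line at 1 RPKM. IRX1 falls to the bottom of the axis in all 3 A375RIPK4.KO libraries, and LHX4 and IRX3 are lower there than in the 3 A375neg libraries.

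Between the groups, 7 members changed. IRX1, IRX3, HOXB8, LHX4 and DLX4 were lower in A375RIPK4.KO, and HOXD13 and HOXD10 were higher. A change was called with edgeR's quasi-likelihood test at a Benjamini-Hochberg adjusted p under 0.05 over all genes tested and a difference of at least 1.5-fold. Of the 72 members, 58 had enough counts to be tested, and the other 14 had a mean under 10 counts and between 0 and 13 counts per library. The 7 calls are 12.1% of the tested members, against 9.04% of the 14443 genes tested. The 2 higher members compare with 4.39% of all genes and the 5 lower members with 4.65%. With no limit on the fold, 9 members passed, against 16.6% of all genes. Groups did not overlap in normalized counts (counts scaled to a common library size) for 22 of the 58, against 36.5% of all genes.

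The fitted difference was below 0 for 44 of the 58 tested members (75.9%), with a median log2 fold change of -0.15, while 50.7% of all genes tested were below 0 with a median of -0.0047. In the 6 fits with 1 library removed, 40 to 43 members were below 0. The members together took 0.0700% to 0.0710% of the counts in A375neg and 0.0595% to 0.0648% in A375RIPK4.KO. These ranges did not overlap, and the exact two-sided permutation test gave p = 0.1, the smallest that 3 libraries against 3 can give.

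**Figure D3:**
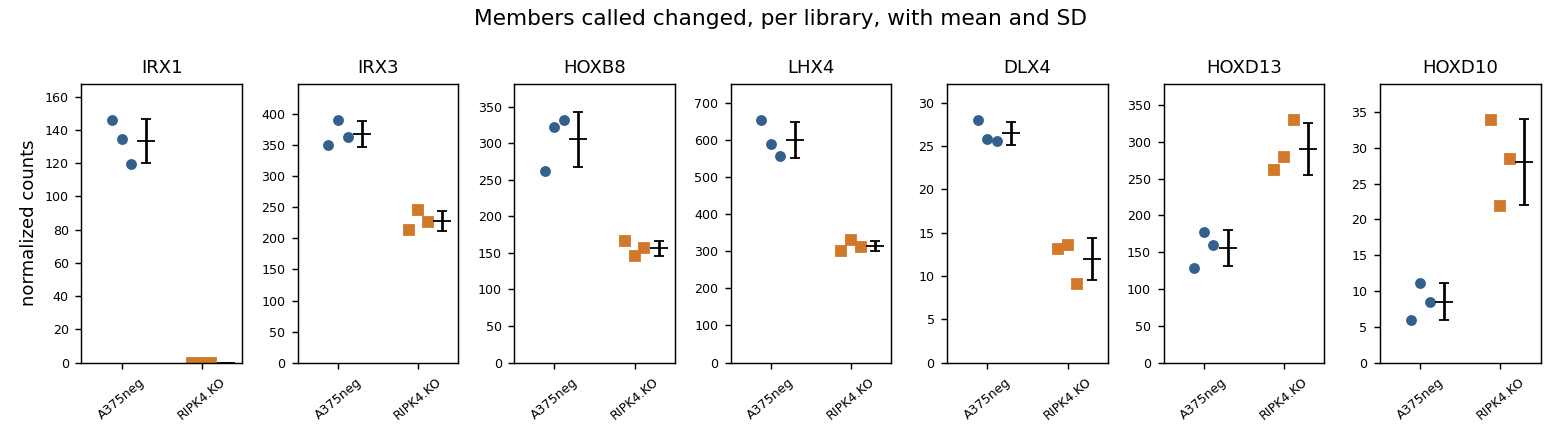
Normalized counts of the 7 members called changed, with 1 point per library (3 A375neg, 3 A375RIPK4.KO), a bar for the mean with its SD, and a vertical axis of its own from 0 for each gene. IRX1 is at 0 in all 3 A375RIPK4.KO libraries, and in none of the 7 panels do the groups overlap.

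IRX1, on chromosome 5 from 3595832 to 3601403 (RefSeq, GRCh38), lost all of its counts. It had 146, 146 and 126 counts in A375neg and 0, 0 and 0 in A375RIPK4.KO. The mean was 133 ± 13.3 normalized counts (SD, n = 3) in A375neg, or 2.92 ± 0.292 RPKM. A count of 0 still allows 3 counts, or 0.124 to 0.134 CPM in these libraries, so IRX1 was at least 42.3-fold lower (adjusted p = 2.02e-05 in edgeR). This limit, computed against 3 counts per library, covers counting error only.

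IRX3, on chromosome 16 from 54283304 to 54286787 on the minus strand, had 350, 424 and 384 counts in A375neg and 195, 235 and 224 in A375RIPK4.KO. Every A375RIPK4.KO library was below every A375neg library. The log2 fold change was -0.69 ± 0.11 (SE), a 1.61-fold lower level, with an adjusted p of 0.00317 in edgeR. IRX5, its neighbour in the same cluster on chromosome 16 from 54930865 to 54934485, had 82, 97 and 101 counts in A375neg and 58, 82 and 52 in A375RIPK4.KO. The IRX5 groups overlapped, and its difference of -0.40 ± 0.23 did not pass (adjusted p = 0.269). The ratio of IRX3 to IRX5 counts was 4.15 ± 0.303 in A375neg and 3.51 ± 0.733 in A375RIPK4.KO (SD, n = 3), and these ratios overlapped (exact permutation test, two-sided, p = 0.3), so a difference between the 2 neighbours was not detected. The summed level of the 3 IRX genes was 9.35 ± 0.313 RPKM in A375neg and 4.16 ± 0.432 in A375RIPK4.KO.

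The loss of IRX1 counts was set against the genes around it. IRX2 and IRX4, which share its cluster on chromosome 5, were not analysed here. Within 3 Mb on either side, 25 other genes were listed and 17 of them were tested. With edgeR 0 of the 17 changed, against 9.04% of all genes tested. Their median log2 fold change was 0.03, with a range from -0.72 to 0.88. At an unadjusted p under 0.05 there was 1 of the 17, SLC12A7, a cotransporter gene (log2 fold change -0.66 ± 0.23, adjusted p = 0.0829). DESeq2 called SLC12A7 and UBE2QL1 among all 25.

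Within 1 Mb of IRX1, 1 other gene was listed. This was LOC107986399, 19 kb away by the positions in the table, with 4, 8 and 8 counts in A375neg and 1, 0 and 0 in A375RIPK4.KO, too few to be tested. UBE2QL1, which lies 2842 kb away and was not tested in edgeR, had 26, 8 and 1 counts in A375neg and 0, 0 and 0 in A375RIPK4.KO. The nearest tested genes were ADAMTS16, a matrix protease gene at 1544 kb on one side, with 36, 35 and 55 counts in A375neg and 38, 48 and 46 in A375RIPK4.KO, and NDUFS6 and MRPL36 at -1794 kb, on the other. NDUFS6 differed by 0.03 ± 0.09 and MRPL36 by 0.06 ± 0.10 on the log2 scale.

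**Figure D4:**
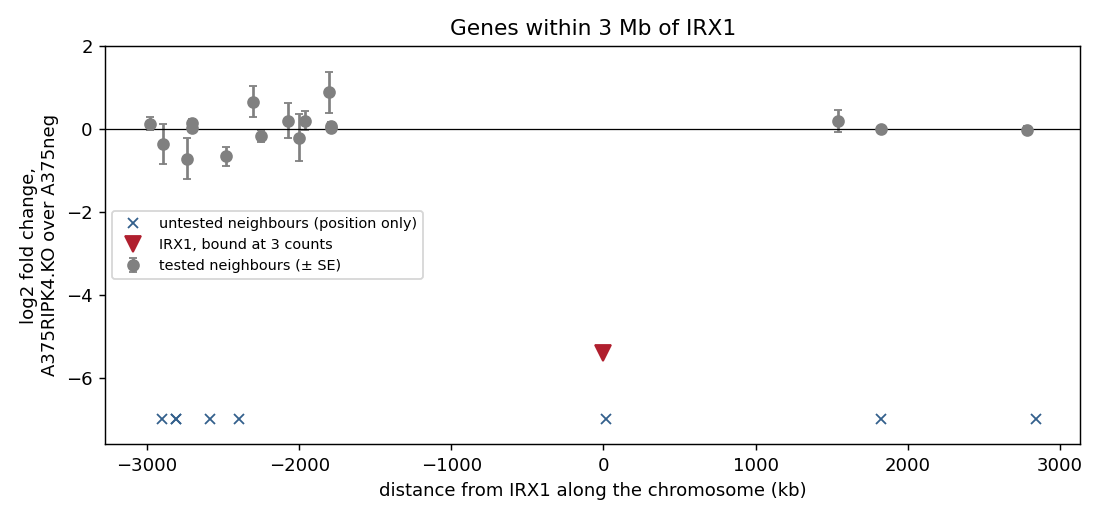
Log2 fold change (A375RIPK4.KO over A375neg, with SE) of the tested genes against their distance from IRX1 in kb, with untested genes as crosses at the bottom and IRX1 as a triangle at the bound computed against 3 counts. The 17 tested neighbours lie between -0.72 and 0.88, while IRX1 is lower by at least 5.40 on the log2 scale.

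The HOXB genes were all fitted below 0, and 1 of the 9 changed. HOXB8, a central gene that acts in the spinal cord and in blood cell precursors, had 262, 350 and 350 counts in A375neg and 152, 140 and 155 in A375RIPK4.KO. The groups were well apart, with a log2 fold change of -0.96 ± 0.14 (SE) and an adjusted p of 0.00168 in edgeR. RefSeq places HOXB8 on chromosome 17 from 48612346 to 48615292 on the minus strand, but the exon position given for it in the deposited table lies outside that span, so the gene model that was counted is uncertain. Its neighbours HOXB7 and HOXB9 had log2 fold changes of -0.17 ± 0.10 (adjusted p = 0.286) and -0.43 ± 0.13 (adjusted p = 0.0535). HOXB9 had 262, 301 and 239 counts in A375neg and 169, 183 and 188 in A375RIPK4.KO, which did not overlap.

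HOXB8 was thus set against its neighbours within each library. The ratio of HOXB8 to HOXB7 counts was 0.440 ± 0.0278 in A375neg and 0.256 ± 0.0401 in A375RIPK4.KO (SD, n = 3). The ratio of HOXB8 to HOXB9 was 1.21 ± 0.236 and 0.830 ± 0.0673. Neither ratio overlapped between the groups, and each exact two-sided permutation test gave p = 0.1 (0.125 adjusted over 5 such ratios), which is the smallest p that 3 against 3 allows. HOXB3 differed by -0.49 ± 0.15, which was under 1.5-fold (adjusted p = 0.0544 in edgeR and 0.0298 in DESeq2). The HOXB sum was 58.2 ± 1.28 RPKM in A375RIPK4.KO, 16.4% below A375neg, and the sums did not overlap.

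In the HOXD cluster 2 of the 6 tested genes changed, HOXD13 and HOXD10, and both were higher. HOXD13, which patterns digits and the urogenital tract, had 129, 193 and 169 counts in A375neg and 239, 267 and 325 in A375RIPK4.KO. Every A375RIPK4.KO library was above every A375neg library. The log2 fold change was 0.90 ± 0.16 (SE), a 1.86-fold higher level, with an adjusted p of 0.00525 in edgeR. RefSeq places the gene on chromosome 2 from 176087487 to 176095944.

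HOXD10, on chromosome 2 from 176116778 to 176119937, is known for limb and spinal cord patterning. It had 6, 12 and 9 counts in A375neg and 31, 21 and 28 in A375RIPK4.KO, a log2 fold change of 1.70 ± 0.38 (SE) with an adjusted p of 0.0151 in edgeR. The groups did not overlap, but the counts are few: the call was lost in 4 of 6 fits that left out 1 library (without A375neg replicate 1 or 3, or A375RIPK4.KO replicate 1 or 3), with adjusted p from 0.0549 to 0.0578. HOXD11 and HOXD12, which lie between HOXD10 and HOXD13, had 0 to 9 counts per library and were not tested. HOXD9, beside HOXD10, had 200, 233 and 228 counts in A375neg and 170, 216 and 176 in A375RIPK4.KO (log2 fold change -0.10 ± 0.14, adjusted p = 0.697).

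Relative to HOXD9, HOXD13 counts had a ratio of 0.738 ± 0.0917 in A375neg and 1.496 ± 0.315 in A375RIPK4.KO (SD, n = 3). For HOXD10 over HOXD9 the ratios were 0.0403 ± 0.0108 and 0.146 ± 0.0440. Both ratios were apart between the groups (exact two-sided permutation test, p = 0.1 each, the smallest possible). HOXD8, which lies next to HOXD9, had a log2 fold change of 0.33 ± 0.15 that did not pass (adjusted p = 0.175). HOXD1, at the anterior end, had 9, 9 and 8 counts in A375neg and 18, 14 and 10 in A375RIPK4.KO. These did not overlap, but the difference of 0.82 ± 0.43 did not pass (adjusted p = 0.241 in edgeR). Of the 6 tested HOXD genes, 2 were fitted below 0. The HOXD sum was 13.3 ± 0.353 RPKM in A375RIPK4.KO, against 10.5 ± 0.171 in A375neg.

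**Figure D5:**
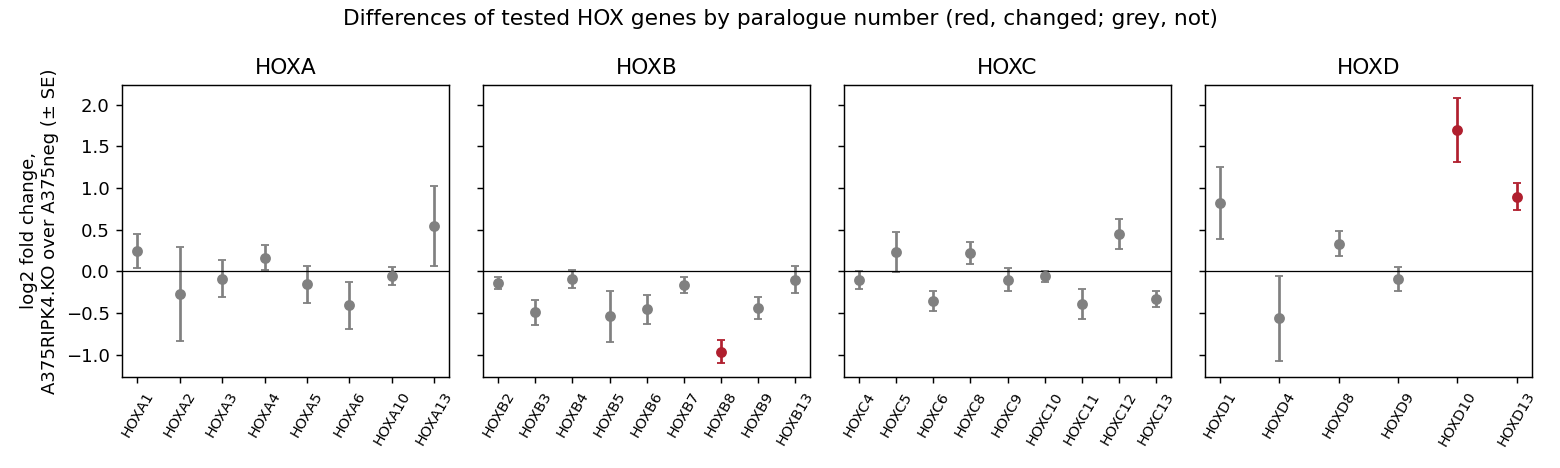
Log2 fold change (A375RIPK4.KO over A375neg, with SE) of the 32 tested HOX genes in order of paralogue number, 1 panel per cluster, with called genes in red. All 9 HOXB genes lie below 0 with HOXB8 lowest at -0.96, and HOXD10 and HOXD13 stand at 1.70 and 0.90.

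In the HOXA and HOXC clusters no gene changed. With edgeR 0 of 8 tested HOXA genes were called, 0 had an unadjusted p under 0.05 and DESeq2 called 0. Their log2 fold changes ran from -0.41 to 0.54. Among 9 HOXC genes edgeR and DESeq2 called 0, and 3 had an unadjusted p under 0.05 (HOXC6, HOXC12 and HOXC13). HOXC13 had 678, 614 and 639 counts in A375neg and 414, 494 and 493 in A375RIPK4.KO. Its groups did not overlap and its adjusted p was 0.0449, but its log2 fold change of -0.33 ± 0.10 was under 1.5-fold. The adjusted p was above 0.05 in 7 of 11 alternatives (0.0635 to 0.165), including those that left out 1 A375neg library, whichever it was, or A375RIPK4.KO replicate 1 or 3. The HOXA sum was 18.0 RPKM in both groups, with SD of 1.85 and 0.426.

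Of the families with 1 listed gene far above the rest, LHX had a called leader. LHX4, a LIM-homeodomain factor of pituitary and motor neuron development on chromosome 1 from 180228375 to 180278984, had 653, 640 and 588 counts in A375neg and 276, 315 and 306 in A375RIPK4.KO. The groups were far apart, with a log2 fold change of -0.94 ± 0.10 (SE) and an adjusted p of 0.000205 in edgeR. LHX8 was not tested, with 11, 8 and 13 counts in A375neg and 1, 4 and 2 in A375RIPK4.KO. LHX6 and LHX9 had log2 fold changes of -0.07 ± 0.25 and -0.47 ± 0.35 and did not pass.

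DLX4, a distal-less gene on chromosome 17 from 49968572 to 49974959, had 28, 28 and 27 counts in A375neg and 12, 13 and 9 in A375RIPK4.KO. The groups did not overlap, and the log2 fold change was -1.14 ± 0.33 (SE) with an adjusted p of 0.0440 in edgeR. This call was lost in each of the 6 fits that left out 1 library (adjusted p from 0.0645 to 0.160) and in DESeq2 (adjusted p = 0.139). DLX1, the leading gene of the family, differed by -0.01 ± 0.07 on the log2 scale.

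In the TBX family TBX3 had 1429, 1614 and 1529 counts in A375neg and 1147, 1101 and 1231 in A375RIPK4.KO. Its groups did not overlap and its adjusted p was 0.0243, but the log2 fold change of -0.26 ± 0.06 was under 1.5-fold. Its adjusted p was above 0.05 in 4 of 11 alternatives (0.0591 to 0.108), those that left out 1 A375neg library, whichever it was, or A375RIPK4.KO replicate 3. TBX2, a close relative that also represses transcription, had -0.46 ± 0.14, also under 1.5-fold (adjusted p = 0.0572 in edgeR and 0.0386 in DESeq2). TBX20 had 83, 73 and 92 counts in A375neg and 124, 83 and 119 in A375RIPK4.KO, which overlapped (0.53 ± 0.22, adjusted p = 0.144), and it was called when A375RIPK4.KO replicate 2 was left out. In the TBX, sine oculis, MEIS, PBX and MSX families, edgeR and DESeq2 called 0 genes. At an unadjusted p under 0.05 there were 3 of 6 TBX genes, 2 of 3 MEIS genes, 1 of 3 PBX genes, 0 of 3 sine oculis genes and 0 of 2 MSX genes. The leading genes differed on the log2 scale by -0.05 ± 0.12 (SIX5), -0.25 ± 0.08 (MEIS2, adjusted p = 0.0606), -0.03 ± 0.08 (PBX3) and -0.10 ± 0.11 (MSX1).

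Genes that act with or lie beside the members were counted by list and by distance. Over all 14443 genes tested, 9.04% changed, with 4.39% higher and 4.65% lower, and each count is to be read against these shares. Of 15 tested non-coding RNAs and neighbours of the HOX clusters, 2 were higher and 0 lower. HAGLR, an antisense non-coding RNA of the HOXD cluster, had 195, 181 and 180 counts in A375neg and 264, 232 and 268 in A375RIPK4.KO (log2 fold change 0.59 ± 0.14, adjusted p = 0.0172 in edgeR). HAGLR and HOXD10 were the changed genes among 14 tested within 1 Mb of HOXD13. Whether the counting used strand is not given in the sources used here, so reads of an antisense RNA and of a gene it overlaps may not be told apart. SKAP1, a T cell adaptor gene 188 kb from HOXB8, had 1, 6 and 9 counts in A375neg and 24, 22 and 31 in A375RIPK4.KO (2.38 ± 0.54, adjusted p = 0.0159), the opposite direction to HOXB8. The other changed gene among 37 tested within 1 Mb of HOXB8 was NGFR, a nerve growth factor receptor gene 878 kb away, which was lower as HOXB8 was, with 192, 173 and 209 counts in A375neg and 12, 21 and 31 in A375RIPK4.KO. Within 1 Mb of DLX4, on the same chromosome, 4 of 27 tested genes were lower (NGFR, ABCC3, ACSF2 and TOB1) and 0 higher. The TOB1 call was lost without A375neg replicate 3 or A375RIPK4.KO replicate 2. Within 1 Mb of LHX4, 1 of 14 was lower (MR1), a call lost without A375neg replicate 3 (adjusted p = 0.0593 in edgeR). Within 1 Mb of IRX3, edgeR and DESeq2 called 0 of 7 tested genes, and 0 had an unadjusted p under 0.05. MMP2, a changed gene that lies beyond IRX5, falls outside this window and is given below. The calls of HAGLR and SKAP1 rest on few libraries: HAGLR was lost without A375neg replicate 2 or 3 or A375RIPK4.KO replicate 1 or 3 (adjusted p from 0.0566 to 0.0734), and SKAP1 without A375neg replicate 2 or A375RIPK4.KO replicate 3 (0.0640 to 0.0662).

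Among 3 tested co-factors of sine oculis proteins, 2 were lower. EYA1, a sine oculis co-activator with phosphatase activity, had 396, 429 and 556 counts in A375neg and 62, 89 and 83 in A375RIPK4.KO (log2 fold change -2.43 ± 0.18, adjusted p = 2.83e-05 in edgeR). EYA4 had 982, 1138 and 1192 counts in A375neg and 647, 544 and 697 in A375RIPK4.KO (-0.67 ± 0.10, adjusted p = 0.00194), and without A375RIPK4.KO replicate 2 its log2 fold change of -0.57 was under 1.5-fold. SIX4 and SIX5 themselves had log2 fold changes of -0.09 ± 0.18 and -0.05 ± 0.12, which did not pass.

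Of 12 tested TALE and LIM partners, 1 was lower and 0 higher. PKNOX2, a TALE homeodomain factor that pairs with PBX, had 32, 55 and 35 counts in A375neg and 3, 11 and 4 in A375RIPK4.KO (-2.60 ± 0.48, adjusted p = 0.00553). Of 11 tested neighbours of the IRX clusters, 1 was lower. This was MMP2, a gelatinase gene that lies beyond IRX5 on chromosome 16, with 4909, 5215 and 5203 counts in A375neg and 1690, 1669 and 2162 in A375RIPK4.KO (-1.34 ± 0.09, adjusted p = 1.25e-05). IRX5 itself, with a difference of -0.40 ± 0.23, did not pass.

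Among 35 tested homeobox genes outside these families, 3 were higher and 3 lower. EN1, an engrailed gene of midbrain and limb patterning, had 2, 4 and 2 counts in A375neg and 46, 40 and 36 in A375RIPK4.KO (4.01 ± 0.41, adjusted p = 0.000194). HHEX had 1023, 1006 and 1008 counts in A375neg and 1807, 1836 and 1864 in A375RIPK4.KO (0.99 ± 0.06, adjusted p = 1.34e-05), and GBX2 differed by 1.22 ± 0.30 (adjusted p = 0.0217). TSHZ2 had 10, 12 and 11 counts in A375neg and 0 in each A375RIPK4.KO library, which is at least 3.33-fold lower against 3 counts per library. EN2, the paralogue of EN1, went the other way with -0.59 ± 0.15 (adjusted p = 0.0269). The calls of EN1, HHEX and TSHZ2 held in 6 of 6 fits with 1 library left out. GBX2 was lost without A375neg replicate 1 or 3 or A375RIPK4.KO replicate 1 or 3 (adjusted p from 0.0553 to 0.0805). EN2 was called in 1 of the 6, that without A375RIPK4.KO replicate 3, and its log2 fold change in the others ran from -0.65 to -0.51.

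The Polycomb and trithorax regulators, which keep HOX clusters silent or active, showed no called change. With edgeR 0 of 24 tested genes changed, against 9.04% of all genes tested. Of the 24, 2 had an unadjusted p under 0.05 (EED and PHC1), and DESeq2 called 0. The median log2 fold change was -0.02, with a range from -0.76 to 0.32. Both tested T-box genes outside the TBX symbols, with log2 fold changes of -0.01 and 0.14, were not called by edgeR or DESeq2, and 0 had an unadjusted p under 0.05.

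The genes whose pattern over the 6 libraries was most like that of IRX1 were GPAT3, ADGRF1, FST, IL24 and BTG2, with a Pearson correlation of log2 CPM from 0.9994 to 0.9996 over 6 libraries. All 5 were lower in A375RIPK4.KO, and the libraries fall into 2 groups, so these values describe the difference between groups and the small spread within them. FST, the activin antagonist follistatin, had 3864, 3985 and 3835 counts in A375neg and 1121, 1124 and 1208 in A375RIPK4.KO. IL24, a cytokine gene, had 8076, 8380 and 8539 counts in A375neg and 52, 59 and 54 in A375RIPK4.KO.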

How the data were processed

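Total RNA of 3 A375neg and 3 A375RIPK4.KO libraries was enriched for poly(A) RNA, made into strand-specific libraries and sequenced in pairs by a provider. The raw counts per gene were deposited by the authors as whole numbers. Size-factor-scaled counts, a signal that the authors also deposited, and the columns of their own test (fold changes and p-values) were not used. The submitters' processing notes name cutadapt, FastQC, HISAT2, HTSeq and DESeq2 and the build GRCh38.p13, with no versions. Whether counting used strand is not given in the sources used here.

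Raw counts of all genes were fitted in R 4.3.3 with edgeR 4.0.16 (TMM, the filterByExpr filter and the quasi-likelihood test), with p-values of 14443 genes adjusted by Benjamini-Hochberg. Changed genes had an adjusted p under 0.05 and a fold of at least 1.5. Normalized counts here are raw counts divided by the TMM-scaled library size relative to the mean. RPKM used exon lengths of GENCODE 29 in place of the exon length of the table, which gives the position of 1 exon per gene. Gene spans are from RefSeq. Groups at no more than 3 counts per library were given as bounds. Single ratios were compared by exact permutation tests.

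Alternatives were DESeq2 1.42.0, its size factors in edgeR, no filter, a mean of at least 50 counts, a replicate block, each library left out, no fold limit, a level of 0.5 RPKM and the length of the longest transcript. The fits were tested on simulated counts. Figures were drawn with matplotlib 3.10.9. Named with values were each IRX member, members with an adjusted p under 0.05, leading members of each family, neighbours of called HOX genes, and changed genes of the companion lists. Genes outside this rule, such as SLC12A7, UBE2QL1, LHX8, HOXB3, TBX2, NGFR and the other changed genes near members or among the cell type markers, were named after their values were seen. The members and lists were chosen with earlier results of these data known. Some results computed for genes of these lists, and 1 of the coding stretches, are not reported here.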

Additional observations from a re-analysis of the deposited data

How the results depend on the processing

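The count of changed members was 7, and it ran from 5 to 9 under the alternatives, with 5 to 7 when a library was left out. IRX1, IRX3, HOXB8, LHX4 and HOXD13 were called in every alternative that was fitted again. A mean of at least 50 counts left 1 higher member in place of 2 and 7 changed companion genes in place of 12, because DLX4, HOXD10 and other low genes were then not tested. Leaving out 1 library gave 1 to 3 higher members, 4 lower members and 9 to 10 changed companion genes. Of 108 single-gene values under the alternatives, 95 kept their direction and their call by adjusted p and fold, 13 lost the call (9 of DLX4 and 4 of HOXD10) and 0 reversed. HOXC13 and TBX3, which were under 1.5-fold and not called, went above an adjusted p of 0.05 in 7 and 4 of 11 alternatives.

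Same-numbered libraries of the 2 groups had correlations of their deviations of 0.0823, 0.0357 and -0.0119, so the numbers were not taken as pairs. With the replicate block 6 members and 12 companion genes were called, and DLX4 was the member lost (adjusted p = 0.0809). The cause of these differences was not tested.

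With 3 libraries per group, members with few counts, such as HOXD10, DLX4 and the 14 untested members, limit what could be seen. The number of members at 1 RPKM or more was 43, and it was 48 at 0.5 RPKM and 45 with the length of the longest transcript.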
